A study of Homo sapiens with 10 samples.

Results

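FAS and the TRAIL receptors are cell surface receptors of the TNF receptor superfamily through which outside ligands can start apoptosis. The genes described here are FAS, the 4 TRAIL receptors TNFRSF10A, TNFRSF10B, TNFRSF10C and TNFRSF10D, and the receptor-proximal partners FADD, CFLAR, PIDD1 and CRADD. They were taken by symbol, with earlier results of these data known, and are 9 of the 26040 genes in the table. RNA was sequenced from 10 libraries of U2OS, an established human osteosarcoma line, to ask how knockdown of ARVCF, a catenin of the p120 family, alters transcription induced by p53. All cells carried a lentiviral shRNA and had been selected in puromycin at 1 µg/ml. The shARVCF group under nutlin-3a held 3 libraries, from lines 1, 2 and 3, each with its own shRNA against ARVCF, after 10 µM nutlin-3a for 24 h. The control group under nutlin-3a held 3 libraries of the negative control shRNA after the same dose and time. The untreated shARVCF group held 3 libraries of the same lines without drug, and the untreated control group held 1 library. Per the labels each line was a single clone, so the control stands on 1 clone and the shARVCF replicates differ in both shRNA and clone. Nutlin-3a is a small molecule that keeps MDM2 from binding p53 and so stabilises p53.

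When a trimeric ligand such as FAS ligand or TRAIL clusters its receptors, their intracellular death domains recruit the adaptor FADD, which gathers and activates caspase-8. CFLAR encodes c-FLIP, a caspase-8 relative that can block this step. TNFRSF10A (DR4) and TNFRSF10B (DR5) carry a death domain, whereas TNFRSF10C has none and TNFRSF10D a truncated one, so these last are called decoy receptors. PIDD1 and CRADD (also named RAIDD) are death domain proteins that together form the PIDDosome, a platform for caspase-2. FAS, TNFRSF10B and PIDD1 are well-known p53 target genes.

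The promoters of FAS, FADD, CFLAR, PIDD1 and CRADD were searched for the decamer that p53 binds, because nutlin-3a acts through p53. Those of the TRAIL receptor genes were left out of the search, so nothing is known here of matches in them. RefSeq (GRCh38.p14) gave windows from 250 bases before to 50 after a start site, 3 for FAS, 1 for FADD, 4 for CFLAR, 1 for PIDD1 and 3 for CRADD. The decamer reads the same on both strands in its ambiguity letters, so searching 1 strand covers both. Among these windows, an exact decamer was found only in that of a FAS start at chr10:88991181-88991480 (plus strand), which lies inside the annotated gene. The window is shown because it alone of these held an exact decamer. Capitals mark 2 adjoining decamers, from -122 to -103 relative to the start. The first is exact and the second has 2 mismatches.
FAS: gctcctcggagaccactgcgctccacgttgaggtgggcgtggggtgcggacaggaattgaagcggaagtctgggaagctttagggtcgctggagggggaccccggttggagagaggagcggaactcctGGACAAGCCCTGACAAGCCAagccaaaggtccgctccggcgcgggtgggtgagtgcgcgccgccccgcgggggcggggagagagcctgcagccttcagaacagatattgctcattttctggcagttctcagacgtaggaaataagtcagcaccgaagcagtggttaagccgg
An exact decamer was present in 6.63% of all 35116 windows searched. An adjoining pair with at most 2 mismatches and both cores kept was present in 0.285% of them. A match is a description of the sequence, and no binding was measured here.

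In human genome build hg38, FAS lies at chr10:88990582-89015785 on the plus strand, with 9 exons in its longest basic GENCODE transcript. The TRAIL receptors lie side by side on chromosome 8. TNFRSF10B is at chr8:23020133-23069179 (minus strand, 9 exons), TNFRSF10C at chr8:23102590-23117437 (plus strand, 5 exons), TNFRSF10D at chr8:23135588-23164030 (minus strand, 9 exons) and TNFRSF10A at chr8:23190452-23225126 (minus strand, 10 exons). FADD is at chr11:70203163-70207390 (plus strand, 2 exons) and PIDD1 at chr11:799179-809753 (minus strand, 16 exons). CFLAR is at chr2:201116104-201176687 (plus strand, 10 exons) and CRADD at chr12:93677375-93894840 (plus strand, 3 exons).

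Values are scaled fragments, the authors' estimate of fragments per gene brought to a common scale across libraries. Scaled totals ran from 17821751 to 19903778 per library, and the unscaled totals estimated from the lowest values ran from 15073345 to 21096230. ARVCF stood at 1188 to 1284 in the shARVCF libraries and at 2376 to 2928 in the control libraries under nutlin-3a, and at 291.8 to 343.2 against 617.7 without drug. The p53 targets MDM2 and CDKN1A were higher under nutlin-3a in every library of both kinds of line. Of the osteoblast lineage markers, 5 of 8 passed the filter described below and their sum ran from 76080 to 130700 over all libraries. None of the 4 blood cell markers passed, and their sum was at most 13.59. All 4 epithelial markers passed, with sums of 8850 to 14060 in shARVCF and 26470 to 27470 in control libraries under nutlin-3a, and of 9080 to 12850 and 11470 without drug. All 3 endothelial markers passed, with sums of 46.55 to 107.4. The library numbers of control nutlin-3a replicates 2 and 3 are far later than those of the other 8 libraries. They are treated below as a second series of libraries, although no label says so. Under nutlin-3a the difference between shARVCF and control lines also rose with transcript length across 14725 genes (Spearman rho 0.58, genes not being independent replicates), and the nutlin-3a response of the control line fell with it (rho -0.43). Values with this trend removed are given beside each call of a named gene that they change, and the part of length in those results was not tested.

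FAS, the receptor of FAS ligand, was higher under nutlin-3a in both kinds of line. It read 2697, 2893 and 2623 scaled fragments in shARVCF lines 1, 2 and 3 under nutlin-3a and 2616, 2248 and 2242 in the control line under nutlin-3a. Without drug it read 326.3, 466.1 and 459.6 in shARVCF lines 1, 2 and 3, and 421.4 in the control line. Every nutlin-3a library was above every untreated one, by a wide gap. The mean was 2737 ± 140 under nutlin-3a and 417.3 ± 78.9 without drug in the shARVCF lines (SD, n = 3 each), a log2 fold change of 2.73 (SE 0.13). That is 6.63-fold, with an adjusted p of 9.82e-09 by limma with Benjamini-Hochberg adjustment over 14955 genes. In the control line the mean was 2369 ± 214 (SD, n = 3) under nutlin-3a against the lone untreated 421.4, a log2 fold change of 2.48 (SE 0.19, adjusted p = 4.4e-07 by limma), or 5.59-fold. Fold changes are on the log2(value + 1) scale throughout.

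Line by line, FAS rose by 3.04, 2.63 and 2.51 on the log2 scale in shARVCF lines 1, 2 and 3, and the control nutlin-3a libraries stood 2.63, 2.41 and 2.41 above the untreated control library. Line 1 had the lowest untreated level and the largest rise. The drug effect was 0.24 log2 units larger in the shARVCF lines than in the control line, with a 95% confidence interval of -0.25 to 0.74 (limma, adjusted p = 0.454). Under nutlin-3a itself, all 3 shARVCF libraries lay above all 3 control libraries, but the log2 difference of 0.21 had an interval of -0.08 to 0.50 (limma, adjusted p = 0.189). In the first library series alone that difference was 0.06, and with values scaled to equal library totals it was 0.33 (limma, adjusted p = 0.0473). The first 758 bases of FAS overlap ACTA2 on the opposite strand, and whether counting used strand is not stated. ACTA2 read 916.3 to 1082 in shARVCF and 1242 to 1345 in control libraries under nutlin-3a, and 69.99 to 161.1 and 109.5 without drug. Whether the 2 genes share fragments was not tested. In cultured cells measured in bulk, fewer cells of a kind and less RNA per cell cannot be told apart.

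TNFRSF10B, the TRAIL receptor DR5, was also higher under nutlin-3a in both kinds of line. It read 4330, 4775 and 5143 scaled fragments in shARVCF lines 1, 2 and 3 under nutlin-3a and 4241, 3912 and 4343 in the control line under nutlin-3a. The untreated values were 1142, 1538 and 1833 in shARVCF lines 1, 2 and 3, and 1498 in the control line. The nutlin-3a and untreated libraries did not overlap, and line order 1, 2, 3 was the same with and without drug. Means in the shARVCF lines were 4749 ± 407 under nutlin-3a and 1504 ± 347 without drug (SD, n = 3 each), a 3.21-fold rise (log2 1.68, SE 0.14, adjusted p = 1.71e-06 by limma). The control line's mean of 4166 ± 225 (SD, n = 3) under nutlin-3a against 1498 was a 2.78-fold rise (log2 1.47, SE 0.20, adjusted p = 6.86e-05 by limma).

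The rise of TNFRSF10B was 1.92, 1.63 and 1.49 log2 units in shARVCF lines 1, 2 and 3, and 1.501, 1.385 and 1.535 in the control nutlin-3a libraries. The drug effects differed by 0.21 log2 units with an interval of -0.34 to 0.75 (limma, adjusted p = 0.569). Under nutlin-3a the shARVCF and control libraries overlapped, with a log2 difference of 0.19 and an interval of -0.13 to 0.50 (limma, adjusted p = 0.288). With the length and GC trend removed by the transcript of median length the difference was 0.42 (limma, adjusted p = 0.0283), and by the longest transcript it was 0.01. TNFRSF10B overlaps RHOBTB2 by 67 bases on the opposite strand, and RHOBTB2 read lower under nutlin-3a, at 507.5 to 744.5 in all treated libraries against 1100 to 1264 in all untreated ones.

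The other TRAIL receptors were low or listed at 0. TNFRSF10A, the receptor DR4, was listed at 0 in all 10 libraries. TNFRSF10D, a decoy, was listed at 0 in 7 libraries, with 1.9 in shARVCF line 3 under nutlin-3a and 1.961 and 0.8496 in untreated shARVCF lines 2 and 3. A listed 0 may be a failed estimate in this table. RPS18 and TUBB, which all cells use, were at 0 in 9 of 10 libraries and FLOT1 in 10 of 10. Neither TNFRSF10A nor TNFRSF10D passed the filter of 10 scaled fragments in at least 3 libraries, so 7 of the 9 genes were tested.

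TNFRSF10C, the decoy without a death domain, was lower under nutlin-3a in the control line. It read 44.29, 50.97 and 21.15 scaled fragments in shARVCF lines 1, 2 and 3 under nutlin-3a and 12.11, 8.384 and 9.594 in the control line under nutlin-3a. Untreated, it read 55.52, 50.63 and 34.67 in shARVCF lines 1, 2 and 3, and 55.18 in the control line. The 3 control nutlin-3a libraries were the lowest of the 10. In the shARVCF lines the drug and untreated libraries overlapped, at 38.8 ± 15.6 and 46.94 ± 10.9 (SD, n = 3 each), with a log2 change of -0.33 and an interval of -1.11 to 0.45 (limma, adjusted p = 0.489). It fell 5.14-fold in the control line, to 10.03 ± 1.9 (SD, n = 3) under nutlin-3a against 55.18 (log2 -2.36, SE 0.51, adjusted p = 0.00163 by limma).

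Under nutlin-3a TNFRSF10C was 3.42-fold higher in the shARVCF lines than in the control line, with no overlap (log2 1.77, SE 0.36, adjusted p = 0.00103 by limma). The drug effects differed by 2.03 log2 units (SE 0.62, interval 0.68 to 3.38, adjusted p = 0.026 by limma). In the first series alone the difference under nutlin-3a was 1.51 (limma, adjusted p = 0.0438) and the difference of drug effects was 1.77 (limma, adjusted p = 0.113). With series as a term in the model the difference of drug effects was again 1.77 (limma, adjusted p = 0.101). It also missed the threshold without shARVCF nutlin-3a replicate 1 (1.89, adjusted p = 0.0519), without replicate 2 (1.79, 0.0585) or without untreated shARVCF replicate 3 (1.83, 0.053), all by limma. TNFRSF10C overlaps the annotated gene AC107959.5 on the same strand, and the 4 TRAIL receptor genes share sequence, so how the authors' counting divided fragments among them is uncertain. At these levels, near the filter, counting error is also larger than for the other members.

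**Figure D1:**
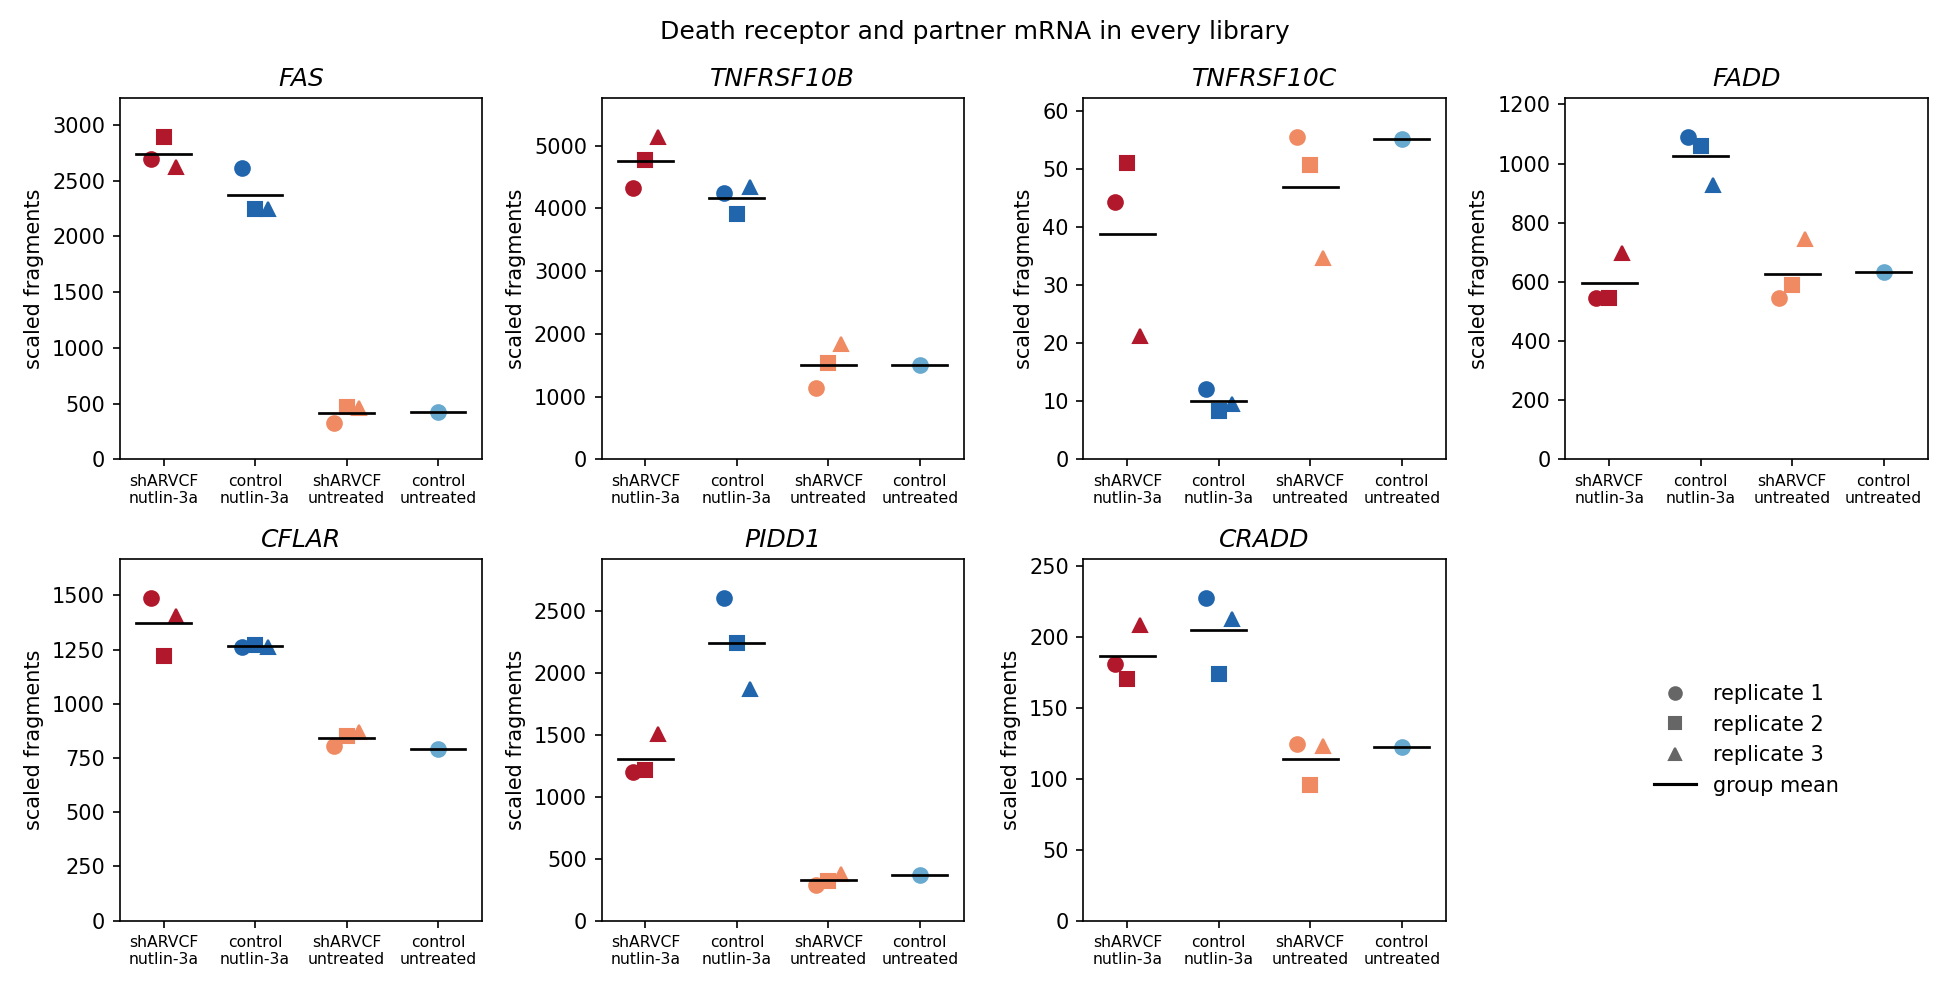
Scaled fragments (vertical axes, each from 0) of the 7 tested genes in each library, by group; points are libraries, with shape giving the replicate number, and bars are group means. FAS, TNFRSF10B, CFLAR, PIDD1 and CRADD are higher in all nutlin-3a libraries than in all untreated ones, while TNFRSF10C and FADD stand apart in the control nutlin-3a libraries, at 8.384 to 12.11 and 928.3 to 1091.

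FADD, the adaptor that links both receptor types to caspase-8, was higher under nutlin-3a in the control line and was not called in the shARVCF lines. It read 546.1, 546.2 and 698.3 scaled fragments in shARVCF lines 1, 2 and 3 under nutlin-3a and 1091, 1058 and 928.3 in the control line under nutlin-3a. Without drug it read 546.8, 590.9 and 746.7 in shARVCF lines 1, 2 and 3, and 632.2 in the control line. The control nutlin-3a libraries were the highest 3 of the 10, and line 3 was the highest shARVCF line in both conditions. Means in the shARVCF lines were 596.8 ± 87.9 under nutlin-3a and 628.1 ± 105 without drug (SD, n = 3 each), a log2 change of -0.07 with an interval of -0.37 to 0.23 (limma, adjusted p = 0.716). A control line mean of 1026 ± 86 (SD, n = 3) under nutlin-3a against 632.2 was a 1.62-fold rise (log2 0.69, SE 0.20, adjusted p = 0.00898 by limma).

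Under nutlin-3a FADD was 1.725-fold lower in the shARVCF lines than in the control line (log2 -0.79, SE 0.14, adjusted p = 0.000364 by limma), and in the first series alone the log2 difference was -0.88 (limma, adjusted p = 0.00975). The drug effects differed by -0.76 log2 units (SE 0.24, interval -1.29 to -0.24, adjusted p = 0.0287 by limma). In the first series alone that value was -0.86 (limma, adjusted p = 0.0655). It missed the threshold without shARVCF nutlin-3a replicate 1 (-0.70, adjusted p = 0.0552) or 2 (-0.71, 0.058), and without control nutlin-3a replicate 1 (-0.72, 0.0538) or 2 (-0.74, 0.0569), all by limma. With the length and GC trend removed by the longest transcript, the change in the control line was -0.125 (limma, adjusted p = 0.586) and the difference under nutlin-3a was -0.01 (limma, adjusted p = 0.952). By the transcript of median length they were 0.11 (limma, adjusted p = 0.634) and -0.25 (limma, adjusted p = 0.143). The difference of drug effects was then -0.02 (adjusted p = 0.959) by the longest and -0.27 (adjusted p = 0.475) by the median transcript, both by limma. The epithelial marker sum was likewise highest in the control nutlin-3a libraries, as given above, and its part in the FADD values was not tested.

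CFLAR, the caspase-8 inhibitor, was higher under nutlin-3a in both kinds of line. It read 1488, 1221 and 1403 scaled fragments in shARVCF lines 1, 2 and 3 under nutlin-3a and 1262, 1269 and 1263 in the control line under nutlin-3a. The untreated libraries read 806.6, 851.6 and 869.2 in shARVCF lines 1, 2 and 3, and 789.1 in the control line. All nutlin-3a libraries were above all untreated ones, and the shARVCF lines spread more widely under drug than the control replicates did. The rise was 1.62-fold in the shARVCF lines, with means of 1371 ± 136 and 842.5 ± 32.3 (SD, n = 3 each; log2 0.70, SE 0.09, adjusted p = 6.85e-05 by limma). For the control line it was 1.60-fold, with a mean of 1265 ± 4.2 (SD, n = 3) under nutlin-3a against 789.1 (log2 0.68, SE 0.13, adjusted p = 0.000801 by limma). The drug effects differed by 0.02 log2 units, with an interval of -0.34 to 0.37 (limma, adjusted p = 0.95).

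Under nutlin-3a CFLAR differed by 0.11 log2 units between shARVCF and control lines, with an interval of -0.09 to 0.31 (limma, adjusted p = 0.329). Its longest annotated transcript, at 14672 bases, is far longer than its transcript of median length, at 1613 bases. With the length and GC trend removed by the longest transcript the difference was -0.91 (limma, adjusted p = 1.1e-05), and by the median one 0.22 (limma, adjusted p = 0.0722). The difference of drug effects was -0.98 (limma, adjusted p = 0.0019) and 0.15 (limma, adjusted p = 0.578) in the same order. The sign therefore depended on which transcript stood for the gene. The antisense gene CFLAR-AS1 within it read at most 28.3.

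PIDD1, the scaffold of the PIDDosome, was higher under nutlin-3a in both kinds of line. It read 1203, 1213 and 1507 scaled fragments in shARVCF lines 1, 2 and 3 under nutlin-3a and 2606, 2243 and 1871 in the control line under nutlin-3a. Its untreated values were 285.5, 318.7 and 373.8 in shARVCF lines 1, 2 and 3, and 368.5 in the control line. The control nutlin-3a libraries were all above the shARVCF ones, which were all far above the untreated ones. Means in the shARVCF lines were 1307 ± 173 under nutlin-3a and 326 ± 44.6 without drug (SD, n = 3 each), a 4.004-fold rise (log2 2.00, SE 0.14, adjusted p = 2.71e-07 by limma). The control line's mean of 2240 ± 368 (SD, n = 3) under nutlin-3a against 368.5 was a 6.01-fold rise (log2 2.59, SE 0.20, adjusted p = 6.11e-07 by limma).

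The rise of PIDD1 was 2.07, 1.93 and 2.01 log2 units in shARVCF lines 1, 2 and 3, and 2.82, 2.60 and 2.34 in the control nutlin-3a libraries, without overlap. Under nutlin-3a it was 1.71-fold lower in the shARVCF lines (log2 -0.77, SE 0.14, adjusted p = 0.000551 by limma), and in the first series alone the log2 difference was -1.003 (limma, adjusted p = 0.00305). The drug effects differed by -0.59 log2 units (SE 0.25, interval -1.13 to -0.05), which missed the threshold (limma, adjusted p = 0.0916). With the shRNA line as a replicate block the same difference had an adjusted p of 0.0349 by limma, and with library series as a term it was -0.82 (limma, adjusted p = 0.0411). It was also called without shARVCF nutlin-3a replicate 3 (-0.69, adjusted p = 0.0454) or control nutlin-3a replicate 3 (-0.71, 0.0455), both by limma. Those are the only 4 of 23 other settings in which it was called. Over all 23 it ran from -0.82 to -0.08, with an adjusted p of up to 0.878 by limma.

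With the length and GC trend removed, the PIDD1 difference between lines under nutlin-3a was -0.13 by the longest (limma, adjusted p = 0.492) and -0.30 by the median transcript (limma, adjusted p = 0.103), while the rise under nutlin-3a was called in both kinds of line by either transcript. PIDD1 overlaps the ribosomal protein gene RPLP2 by 107 bases on the opposite strand. RPLP2 read 3199 to 4141 in shARVCF and 9128 to 10330 in control libraries under nutlin-3a, and 3189 to 3796 and 3595 without drug. Whether the 2 genes share fragments was not tested.

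CRADD, the adaptor between PIDD1 and caspase-2, was modestly higher under nutlin-3a in both kinds of line. It read 180.7, 170.2 and 208.3 scaled fragments in shARVCF lines 1, 2 and 3 under nutlin-3a and 227.5, 174.2 and 212.4 in the control line under nutlin-3a. Without drug it read 124.2, 95.4 and 122.8 in shARVCF lines 1, 2 and 3, and 122.4 in the control line. The nutlin-3a libraries of both kinds of line overlapped each other and lay above all untreated ones. The rise was 1.63-fold in the shARVCF lines, with means of 186.4 ± 19.7 and 114.1 ± 16.2 (SD, n = 3 each; log2 0.71, SE 0.17, adjusted p = 0.0052 by limma). The rise in the control line was 1.66-fold, with a mean of 204.7 ± 27.5 (SD, n = 3) under nutlin-3a against 122.4 (log2 0.73, SE 0.24, adjusted p = 0.0216 by limma). Its value there with the length and GC trend removed was 0.13 by the longest (limma, adjusted p = 0.656) and 0.19 by the median transcript (limma, adjusted p = 0.528).

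**Figure D2:**
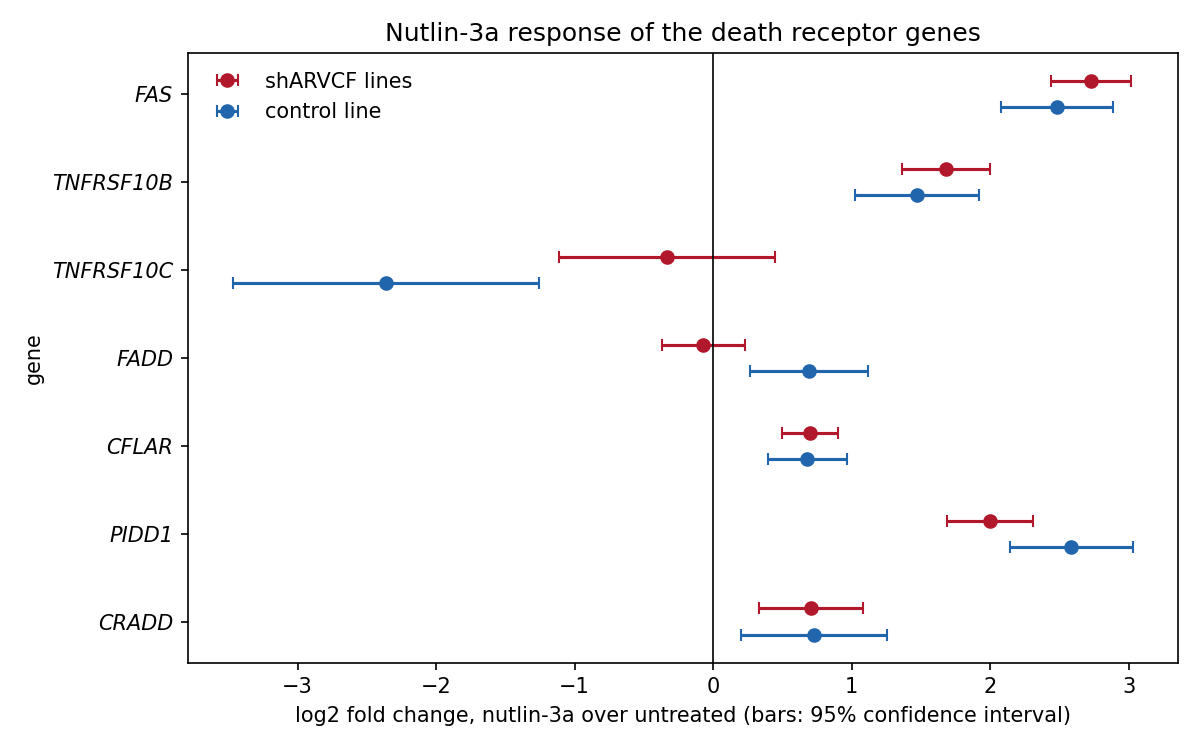
Log2 fold change of nutlin-3a over untreated (horizontal axis) for the 7 tested genes (vertical axis), in shARVCF lines (red) and the control line (blue); points are limma estimates and bars 95% confidence intervals. FAS shows 2.73 and 2.48 and PIDD1 2.00 and 2.59, while TNFRSF10C shows -0.33 and -2.36 and FADD -0.07 and 0.69.

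Counted together, 5 of the 7 tested genes rose under nutlin-3a in the shARVCF lines, 0 fell and 2 were not called, where 21% of all tested genes rose and 21.7% fell. The median log2 fold change of the 7 genes was 0.71, and that of all tested genes was 0.00. In the control line 6 of 7 rose and 1 fell, where 25.1% of all tested genes rose and 32% fell, and the medians were 0.73 and -0.10. In either direction, 42.8% of all tested genes were called in the shARVCF lines and 57.1% in the control line. The largest log2 rise in the shARVCF lines was that of FAS. In the control line PIDD1 (2.59, SE 0.20) and FAS (2.48, SE 0.19) were close. Over 23 other settings PIDD1 ran there from 1.98 to 2.82 and FAS from 2.35 to 2.72, so their order is uncertain.

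Between shARVCF and control lines under nutlin-3a, 1 of the 7 genes was higher (TNFRSF10C), 2 were lower (FADD and PIDD1) and 4 were not called. Over all tested genes 32.3% were higher and 26.1% lower, 58.4% in all, and 7 genes are too few to set the members' share apart from that. FADD and PIDD1 were not called with the length and GC trend removed by either transcript, as given above. The median log2 difference was 0.11 for the 7 genes and 0.06 for all tested genes. For the difference of drug effects, TNFRSF10C was called as higher and FADD as lower, against 19.3% higher and 12.5% lower over all tested genes, and the medians were 0.02 and 0.07. This comparison shares its libraries with the others, so the values are set side by side and lend each other no weight. Without drug, limma called 0 of the 7 genes between shARVCF and control lines, where it called 0.0201% of all tested genes, 3 in number, or 8 with the shRNA line as a replicate block. Also 0 of the 7 had an unadjusted p under 0.05 there, with log2 differences of -0.26 to 0.09. The interval ran from -0.63 to 0.26 for PIDD1 and from -1.36 to 0.85 for TNFRSF10C, so with 1 untreated control library differences of that size were not detectable.

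**Figure D3:**
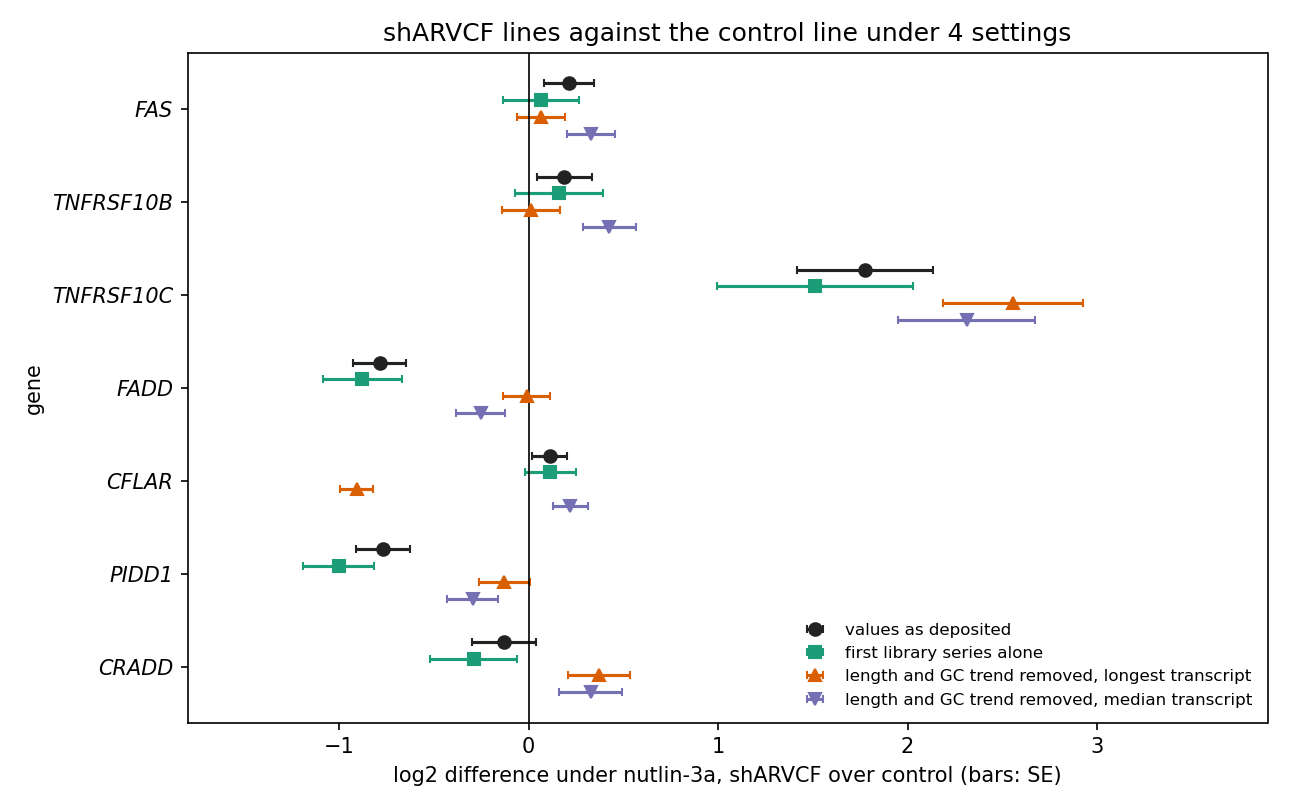
Log2 difference of shARVCF over control lines under nutlin-3a (horizontal axis, bars SE) for the 7 tested genes (vertical axis) under 4 settings. TNFRSF10C stays positive, from 1.51 to 2.56, while FADD moves between -0.88 and -0.01 and CFLAR between -0.91 and 0.22 as the length and GC trend is removed.

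Levels per kilobase of the longest basic transcript allow the genes to be ranked within a group. In the shARVCF lines under nutlin-3a, TNFRSF10B stood at 1146 ± 98.2 and FAS at 1068 ± 54.5 scaled fragments per kilobase (SD, n = 3), which overlap, followed by PIDD1 at 436.1 ± 57.6, FADD at 324.2 ± 47.7 and CRADD at 132.9. In the control line under nutlin-3a, TNFRSF10B at 1005 ± 54.3 and FAS at 924.1 ± 83.6 again overlapped, and PIDD1 stood at 747.2 ± 123 and FADD at 557.1 ± 46.7. In untreated shARVCF lines the order was TNFRSF10B at 362.8 ± 83.7 and FADD at 341.2 ± 57, which overlap, then FAS at 162.8 ± 30.8, PIDD1 at 108.7 ± 14.9 and CRADD at 81.35. In the untreated control library TNFRSF10B was at 361.3, FADD at 343.4, FAS at 164.4 and PIDD1 at 122.9. On this length FADD ranked next to TNFRSF10B without drug and below FAS and PIDD1 under nutlin-3a, in both kinds of line. Of the 7 tested genes TNFRSF10C was lowest, at 22.59 and 5.838 under nutlin-3a and 27.32 and 32.12 without drug, shARVCF lines first in each pair. The place of CFLAR depends on its transcript, since its mean in shARVCF lines under nutlin-3a was 93.41 per kilobase of the longest and 849.7 per kilobase of the median one. FAS is likewise shorter by its median transcript, of 1044 bases against 2563, which puts untreated shARVCF lines at 399.7 per kilobase, above FADD.

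The genes whose levels followed FAS most closely across the 10 libraries were FAM212B, PAPLN, BTG2, FUCA1 and CMBL. Their root mean square difference from FAS in centred log2 values was 0.13, 0.15, 0.17, 0.20 and 0.22. For TNFRSF10B they were PCDH7, PTPRU, RETSAT, SGSH and METTL8, at 0.07, 0.13, 0.13, 0.15 and 0.15. For PIDD1 they were PHLDA3, ARC, GPX1, DPYSL4 and PLEKHF1, at 0.12, 0.13, 0.14, 0.16 and 0.17. The 3 lists share no gene, and the libraries behind them share treatment, series and depth. TNFRSF10A had no pattern to match, being listed at 0 throughout.

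A further 36 genes of the extrinsic pathway, from ligands to caspases and their brakes, were followed, of which 29 passed the filter. Where the length and GC trend is removed for them, it is by the longest transcript, and values by the median one are not given. No ligand passed: FASLG read at most 2.549 and TNFSF10, which encodes TRAIL, at most 7.844. TNF and LTA were listed at 0 in all 10 libraries, and a listed 0 may be a failed estimate, as for TNFRSF10A. In the shARVCF lines under nutlin-3a, 10 of the 29 rose and 4 fell, with a median log2 fold change of 0.09 against 0.00 over all tested genes. For the control line, 11 rose and 4 fell, with a median of 0.09 against -0.10. Of all tested genes, 21% rose and 21.7% fell in the shARVCF lines, while 25.1% rose and 32% fell in the control line. EDAR is among the rises in both kinds of line, although it passed the filter only through nutlin-3a libraries.

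CASP2, which encodes the caspase of the PIDDosome, fell in both kinds of line while PIDD1 and CRADD rose. It read 408.1, 384.8 and 417.1 scaled fragments in shARVCF lines 1, 2 and 3 under nutlin-3a, against 937.3, 753 and 853 without drug. The control line read 292.8, 328.4 and 309.5 under nutlin-3a against 920.1 without drug. All nutlin-3a libraries were below all untreated ones, with log2 fold changes of -1.06 (adjusted p = 7.06e-06) and -1.57 (adjusted p = 4e-06) by limma.

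Among the 7 genes listed as brakes, 4 rose and 0 fell in the shARVCF lines, and 3 rose and 1 fell in the control line. Over all tested genes 21% rose and 21.7% fell in the shARVCF lines, and 25.1% and 32% did so in the control line. PEA15, which binds FADD and caspase-8 through its death effector domain, rose by log2 0.92 in the shARVCF lines (adjusted p = 4.08e-06) and 1.25 in the control line (adjusted p = 4.47e-06), by limma. CYLD, a deubiquitinase of the TNF receptor complex, is in this list and in both counts of rises, but is not an inhibitor of apoptosis. It rose by 1.07 in the shARVCF lines (adjusted p = 1.05e-05) and 0.64 in the control line (adjusted p = 0.00474), by limma. BIRC3, which encodes the inhibitor of apoptosis protein cIAP2, rose by 2.203 in the shARVCF lines (adjusted p = 1.13e-05) and 1.900 in the control line (adjusted p = 0.00032), by limma. XIAP, an inhibitor of caspases 3, 7 and 9, read 716.6 to 816.5 in the shARVCF lines and 269.1 to 328 in the control line under nutlin-3a, and 668.1 to 711.6 and 667.2 without drug. It was the 1 brake called as lower in the control line, by log2 -1.19 (adjusted p = 3.42e-05, limma). Its value there was -0.19 after removal of the length and GC trend (adjusted p = 0.293, limma). Of the 7 listed genes, 3 were then higher and 0 lower, while the shares of all tested genes above are from the fit without that removal.

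Among the adaptors and kinases, 2 of 7 rose and 2 fell in the shARVCF lines, and 2 rose and 0 fell in the control line. TRADD, the adaptor of the TNF receptor, read 260.7 to 274.4 in the shARVCF lines and 451.8 to 639.8 in the control line under nutlin-3a, and 112.9 to 125.7 and 123.2 without drug. Its log2 rise was 2.12 in the control line (adjusted p = 3.17e-06, limma), and 1.18 with the length and GC trend removed (adjusted p = 0.00042, limma). Of the other receptors, 2 of 7 rose and 0 fell in the shARVCF lines, and 4 rose and 2 fell in the control line. EDAR, counted as a rise in both, read 7.77 to 20.9 in nutlin-3a libraries and 0 to 2.681 in untreated ones. It passed the filter only through its nutlin-3a values, which left its call little room to be other than a rise. The same holds for EDAR in the counts with the length and GC trend removed. Of the caspases, 2 of 6 rose and 2 fell in the shARVCF lines, and 1 rose and 1 fell in the control line. Of the mitochondrial genes BID and DIABLO, 0 of 2 were called in the shARVCF lines and 1, DIABLO, rose in the control line. These role counts stand beside the same shares of all tested genes as the brakes. After removal of that trend, the control line counts were 2 higher and 3 lower for the other receptors and 3 higher and 1 lower for the adaptors, and DIABLO was at 0.16 (adjusted p = 0.283, limma). In all, 9 of the 29 were then higher and 5 lower in the control line, and 10 higher and 3 lower in the shARVCF lines. The shares of all tested genes given above come from the fit without that removal, so they are no measure for these counts.

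**Figure D4:**
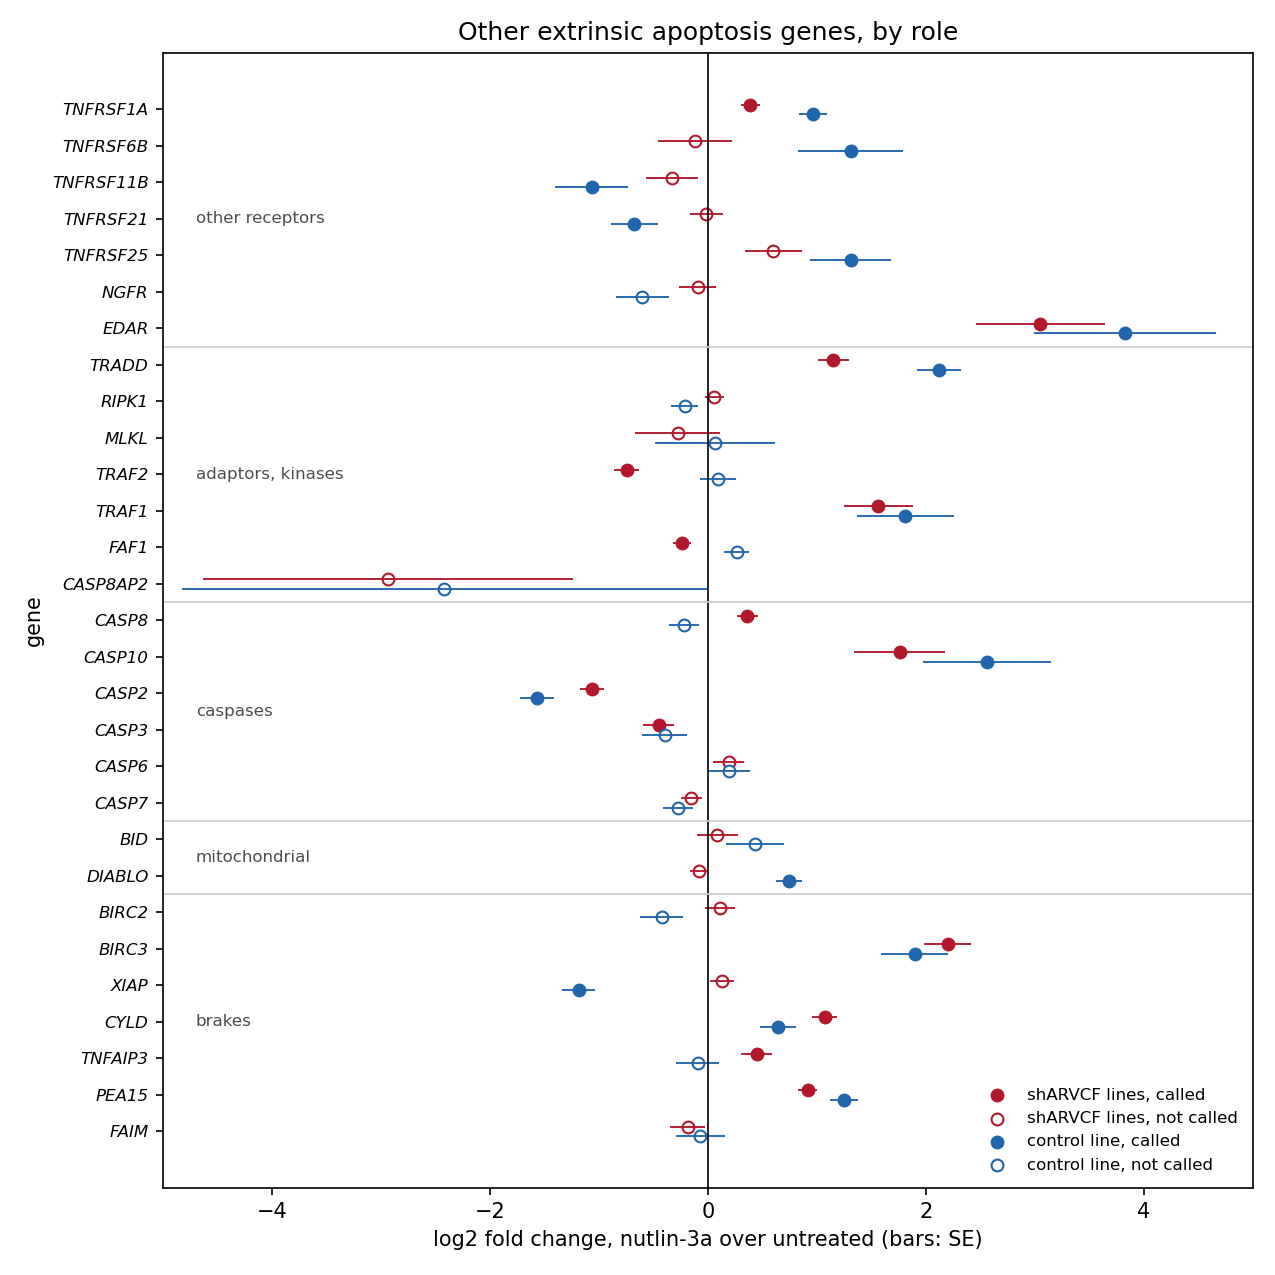
Log2 fold change of nutlin-3a over untreated (horizontal axis, bars SE) for the 29 tested genes of the extrinsic pathway, grouped by role (vertical axis), in shARVCF lines (red) and the control line (blue); filled points were called at 0.05. CASP2 lies at -1.06 and -1.57, and XIAP at -1.19 in the control line.

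Between shARVCF and control lines under nutlin-3a, 10 of the 29 were higher and 8 lower, where 32.3% of all tested genes were higher and 26.1% lower, with a median log2 difference of -0.01 against 0.06 over all tested genes. XIAP was higher by log2 1.35 (adjusted p = 7.23e-07) and TNFRSF21, the death receptor DR6, by 1.32 (adjusted p = 1.4e-05), by limma. TNFRSF21 read 1189 to 1644 in shARVCF and 551.7 to 622 in control libraries under nutlin-3a, and 1196 to 1785 and 929.3 without drug, and its difference of drug effects was not called (0.66, adjusted p = 0.0749, limma). DIABLO, which encodes the IAP antagonist Smac, was lower by log2 -0.85 (adjusted p = 4.5e-06) and TRAF2, a ubiquitin ligase adaptor of the TNF receptor, by -0.98 (adjusted p = 1.51e-05), by limma. With the length and GC trend removed, 6 were higher and 3 lower, with XIAP at 0.39 (adjusted p = 0.00815), TNFRSF21 at 1.29 (adjusted p = 5.89e-05), DIABLO at -0.29 (adjusted p = 0.0167) and TRAF2 at -0.24 (adjusted p = 0.103), by limma. CYLD turned from higher, at 0.485 (adjusted p = 0.00308), to lower, at -0.454 (adjusted p = 0.00695), by limma. Fewer of all tested genes were also called between lines after that removal, so the shares above are no measure for these counts. For the difference of drug effects 2 were higher and 5 lower, where 19.3% of all tested genes were higher and 12.5% lower. Among them were XIAP at 1.31 (adjusted p = 0.000342), DIABLO at -0.83 (adjusted p = 0.00143), TRAF2 at -0.84 (adjusted p = 0.00733) and TRADD at -0.97 (adjusted p = 0.0108), by limma. With that trend removed by the longest transcript, none of these 4 was called. FAF1, which binds FAS, was then the 1 gene called, at -1.17 (adjusted p = 0.000386, limma). FAF1 was named after its value was seen. Without drug limma called 0 of the 29, and 1, TNFRSF21, had an unadjusted p under 0.05 (log2 0.66, adjusted p = 1).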

How the data were processed

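RNA of 10 U2OS libraries was prepared with a stranded mRNA kit, per the labels' protocols. Per the submitters' processing notes, the tools were bcl2fastq 1.8.3, HISAT2 2.1.0 and Cuffnorm 2.2.1, with build hg38. Neither the annotation nor the use of strand in counting is given in the sources used here. Each deposited value is a signal, the authors' scaled fragments of a gene symbol in a library. Between 35.2% and 52.8% of a library's positive values fell on whole multiples of the value it lists most often among low ones (tolerance 0.01), so reads were not recovered, and totals before scaling are estimates.

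Genes with at least 10 in at least 3 libraries (14955) were fitted as log2(value + 1) with 4 group means and 6 residual degrees of freedom (limma 3.58.1 with trend and robust weights, R 4.3.3). Tests were two-sided, adjusted by Benjamini-Hochberg over all tested genes and called at 0.05. Intervals are 95% and come from the fit. The untreated control group has no spread of its own and borrows that of the other groups. Nothing states that control replicates were separate cultures, so p-values measure the spread between these libraries. The fit was tested on simulated data.

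Positions, exons, spliced length and GC are from GENCODE 29, which held 24017 symbols by name and 694 by an older name, while 1329 were not matched. Deviations of the shARVCF libraries from their group means correlated within a line (r 0.275, 0.288 and 0.327 across genes). Values between lines were negative, which subtracting group means brings about, so they lend no weight to the pairing. The labels give the same shRNA, so replicate numbers pair those libraries.

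Members and lists were chosen with earlier results of these data known. All members were named, with ARVCF, MDM2 and CDKN1A as checks. From the pathway list, up to 4 called genes with the smallest adjusted p were named per comparison. The 5 closest genes were named for each of FAS, TNFRSF10B and PIDD1, from genes averaging at least 50. Alternatives were other pseudocounts, filters, scalings (TMM, upper quartile and relative log expression factors, and equal totals), variance moderation, library series, replicate block, a length and GC trend removed per library by splines with 4 degrees of freedom (14725 genes), and each library left out. Removing that trend by the transcript of median length was added after the data were seen.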

Additional observations from a re-analysis of the deposited data

Results flagged for a closer look

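For TNFRSF10C and FADD the nutlin-3a effect differed between shARVCF and control lines by a test of the difference itself, which called 31.8% of all tested genes. The effect on TNFRSF10C was 2.03 log2 units higher in the shARVCF lines than in the control line (SE 0.62, adjusted p = 0.026 by limma), and over 23 other settings this value ran from 1.45 to 2.79, called in 18 of them. The effect on FADD was -0.76 log2 units relative to the control line (SE 0.24, adjusted p = 0.0287 by limma), and over 23 other settings it ran from -0.88 to -0.02, called in 15 of them. That of FADD was not called with the length and GC trend removed by either transcript, as given above. Both results rest on 1 untreated control library.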

How the results depend on the processing

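Over 24 alternatives, of which up to 10 leave out 1 library, the 7 members kept their side of the threshold in the nutlin-3a test of the shARVCF lines, and the 5 called there kept their direction. In the control line FAS, TNFRSF10B, TNFRSF10C, CFLAR and PIDD1 did so under all 23 alternatives that could be fitted. Among the members, removing the length and GC trend by the longest transcript turned the direction of some values called before or after it. FADD in the control line was -0.125, and CFLAR was -0.908 between lines under nutlin-3a and -0.977 for the difference of drug effects. The cause was not tested. CRADD also changed sign in those 2 comparisons over the alternatives, but was called in none. The number of genes called between lines under nutlin-3a was 8731, and 5635 with that trend removed by the longest transcript. For the difference of drug effects it was 4756, and 1852 by the longest or 2365 by the median transcript. Without drug it was 3 between lines, and 8 with a pseudocount of 0.1, 0 with one of 10, 5 without trend and robust weights, 1 in the first series, 8 with the replicate block, 0 with the length and GC trend removed by either transcript, and 1 to 5 with 1 library left out. Scaling to equal totals moved the median log2 value of all genes to -0.21, against -0.10, in the control line and to 0.17, against 0.06, between lines under nutlin-3a. FADD's difference of drug effects was not called without trend and robust weights (adjusted p = 0.0644, limma). The replicate block changed no member's call other than that of PIDD1. Without the untreated control library, 3 of the 5 comparisons could not be fitted. Counting error weighs most on TNFRSF10C, the lowest tested member, at 8.384 to 12.11 scaled fragments in the control line under nutlin-3a.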
